A study of Mus musculus with 12 samples.

Results

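Mature 3T3-L1 adipocytes were transfected with an siRNA against *Paral1* (Paral1-siRNA) or with a control siRNA (Ctrl-siRNA), and their transcriptomes were compared at day 9 of differentiation (D9). The arrays were chosen by their day label. They were 6 of the 12 in the series, 3 per group, and each of experiments 4, 5 and 6 gave 1 array of each group. 3T3-L1 is a mouse fibroblast line that becomes fat cells after hormonal induction, and here dexamethasone, 3-isobutyl-1-methylxanthine and insulin were used. All cells were differentiated, detached with trypsin at D7, transfected in suspension with 100 nM siRNA, and collected 2 days later. The Ctrl-siRNA was a non-targeting Dharmacon reagent and the Paral1-siRNA an Ambion reagent, so the target and the reagent cannot be told apart. The catalogue entry in the labels is that of the second of a pair of Paral1-siRNAs in the methods, whereas the paper's text names the first as the one used further, so which of them these values describe is not settled. Biotinylated DNA made from 300 ng total RNA was hybridised to Affymetrix Mouse Transcriptome Arrays 1.0. The other 6 arrays hold cells transfected at D0 and collected at D2.

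*Paral1* is a long non-coding RNA of fat cells that was reported to act with the nuclear receptor PPARγ. PPARγ and C/EBPα switch on the adipocyte program, which includes fatty acid uptake and synthesis and their storage as triglycerides in lipid droplets. Fat cells also carry receptors for interferons and for double-stranded RNA, and answer to them with antiviral genes. How far the siRNA depleted its target was not read from these arrays, since the cluster of *Paral1* was not analysed here. The paper reports a check of the depletion by RT-qPCR at D9 in cells transfected at D7.

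The values are log2 intensities of 30176 genes, of which 11863 had a D9 mean above 6.30, the mean of the arrays' brightest background probe sets. White adipocyte markers were high on every array: 20 or 21 of 25 lay above that array's background, and their mean log2 value ranged from 12.20 to 12.67 in Ctrl-siRNA and from 11.92 to 12.73 in Paral1-siRNA cells. In these bulk samples, fewer cells of a type and less RNA per cell cannot be told apart.

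The Paral1-siRNA array of experiment 5 stood apart. On it, *Ucp1*, which encodes the uncoupling protein of brown fat, had a log2 value of 10.65, against 4.12 to 4.45 on the other 5 arrays. *Lyz2*, a lysozyme of macrophages, was at 7.12 against at most 4.95, and *Rgs5*, a pericyte gene, at 6.37 against at most 4.33. The smooth muscle myosin gene *Myh11* was at 7.41 against at most 6.26, the calponin gene *Cnn1* at 6.09 against at most 4.72, and the matrix gene *Mgp* at 10.30 against at most 8.63. With predicted models and small RNAs left out, *Itga8*, *C7*, *Ctss*, *Ccdc3*, *Lyz1* and *Fabp3* completed the 12 genes furthest above the other arrays. Genes at least 1 log2 unit above all 5 other arrays then numbered 13 here, against 0 to 4 on each other array. With all entries counted they numbered 17 here, 18 on the Ctrl-siRNA array of experiment 5, where the largest excess was 1.01, and 1 to 6 on the other arrays. Of 18 macrophage markers, 11 were highest on this array and 5 on the Paral1-siRNA array of experiment 4. Of 9 endothelial markers, 6 and 3 were. The macrophage marker *Mpeg1* was highest in experiment 4, at 10.32 on its Paral1-siRNA array. In experiment 5 *Mpeg1* was at 8.97 with Paral1-siRNA and 8.99 with Ctrl-siRNA. Macrophage markers had a mean log2 value of 5.20 on the Paral1-siRNA array of experiment 5, against 4.61 to 4.73 in Ctrl-siRNA. The other Paral1-siRNA arrays were at 4.60 and 4.93, and no endothelial marker exceeded background on any array. Values without experiment 5 are therefore given beside most named genes, and the part of these transcripts in other results was not tested.

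No gene passed an adjusted p of 0.05 (0 of 30176, 0%; limma with experiment as a block), and the lowest adjusted p was 0.60. At an unadjusted p under 0.05, 2073 genes were counted (6.87% of all genes). With a change of at least 1.5-fold in addition, 123 genes (0.408%) passed, 80 lower (0.265%) and 43 higher (0.142%) in Paral1-siRNA cells. Above background, 71 were lower (0.598% of 11863) and 17 higher (0.143%). At an unadjusted p under 0.05 alone, 868 of these 11863 genes were lower and 203 higher. Shares of all genes given beside the lists below also count genes that are not above background. Of the 43 higher entries, 25 were predicted models, small RNAs or olfactory receptors. Experiment 4 had the largest difference for 62 of the 80 lower genes. Without experiment 5, 65 of the 80 lower and 28 of the 43 higher genes still differed by 1.5-fold. Hereafter a gene that "met the threshold" is one of the 123, a choice made without correction for multiple tests, and an SE is that of the paired log2 difference.

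Interferon-stimulated genes held the largest difference toward lower values. *Rsad2* encodes viperin, an enzyme that makes an antiviral nucleotide. In experiments 4, 5 and 6 its log2 values were 8.75, 9.92 and 9.80 with Ctrl-siRNA and 7.63, 7.94 and 7.81 with Paral1-siRNA. All 3 Paral1-siRNA arrays lay below all 3 control arrays, an order seen for 2.50% of all genes. The difference was -1.70 ± 0.19 (SE), 3.24-fold lower, and -1.55 without experiment 5 (limma, adjusted p = 0.60). *Usp18*, a protease that removes ISG15 from proteins and damps interferon signalling, had 13.03, 13.70 and 13.84 in control and 12.41, 12.69 and 12.66 in Paral1-siRNA cells. Its groups did not overlap either, with a difference of -0.94 ± 0.13 (SE), and -0.90 without experiment 5. *Bst2*, which encodes tetherin, had values of 12.55, 13.49 and 11.84 in control and 12.50, 11.70 and 10.50 in Paral1-siRNA cells. Here the groups overlapped, and experiment 4 showed almost no difference. The mean difference of *Bst2* was -1.06 ± 0.31 (SE), -0.70 without experiment 5 and -1.56 without experiment 4.

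The upstream sequences of members of this family are shown because a short element, the interferon-stimulated response element, is shared by many of them. They come from RefSeq promoter windows of build GRCm38.p6, and capitals mark matches to GAAANNGAAA on either strand, overlapping matches joined. The windows run from 250 bases before to 50 after the start, and the stretches shown end upstream of it.
Rsad2 (chr12:26456513-26456622, minus strand): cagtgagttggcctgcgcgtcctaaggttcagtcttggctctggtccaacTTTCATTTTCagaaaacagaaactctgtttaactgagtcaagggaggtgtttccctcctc
Bst2 (chr8:71537537-71537652, minus strand): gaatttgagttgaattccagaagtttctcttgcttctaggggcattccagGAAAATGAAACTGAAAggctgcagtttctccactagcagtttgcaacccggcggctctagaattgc
Isg15 (chr4:156200825-156200946, minus strand): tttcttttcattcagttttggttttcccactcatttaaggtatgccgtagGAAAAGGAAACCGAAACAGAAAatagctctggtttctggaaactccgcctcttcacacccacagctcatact
Oas1a (chr5:120907526-120907595, minus strand): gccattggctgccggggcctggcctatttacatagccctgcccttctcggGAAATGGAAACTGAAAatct
Ifit1 (chr19:34640735-34640863, plus strand): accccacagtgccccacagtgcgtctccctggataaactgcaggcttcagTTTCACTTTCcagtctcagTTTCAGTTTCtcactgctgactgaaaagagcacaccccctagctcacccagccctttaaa

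These letters were found in 20 of the 38 interferon-stimulated genes with a window (52.6%), against 3.44% of all 32851 promoter windows. A match is a description and no site of binding. *Usp18* had no window in the table.

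The genes with these letters did not share 1 difference, and the experiments differed. *Isg15*, a ubiquitin-like protein joined to other proteins, had log2 values of 7.87, 8.97 and 8.14 in control and 8.09, 8.14 and 7.71 in Paral1-siRNA cells. *Oas1a*, which makes the 2-5A messenger of antiviral RNA decay, had 7.38, 8.32 and 7.55 against 7.48, 7.09 and 7.13. Both were slightly higher with Paral1-siRNA in experiment 4 and lower in experiments 5 and 6, with mean differences of -0.35 ± 0.20 and -0.52 ± 0.24 (SE) that did not meet the threshold. Without experiment 5 these differences were -0.10 for *Isg15* and -0.16 for *Oas1a*. *Ifit1*, a binder of foreign RNA ends, differed by 0.48, -0.15 and -0.27 in experiments 4, 5 and 6, a mean of 0.02 ± 0.16 (SE), and 0.11 without experiment 5. *Oas1a* and its near copy *Oas1g* may share signal.

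Across the 50 interferon-stimulated genes measured, 44 had a lower mean in Paral1-siRNA cells and 3 met the threshold as lower (0.265% of all genes), *Rsad2*, *Usp18* and *Bst2*. At an unadjusted p under 0.05, 868 of the 11863 genes above background were lower and 203 higher. Of the 50, 12 were lower (3.69% of all genes) and 0 higher (3.18%). The median difference was -0.19, against -0.06 for all genes above background, 67.2% of which were lower in the mean (45.5% of all genes). In experiment 4 only 14 of the 50 were lower and the median was 0.15, whereas 47 and 49 were lower in experiments 5 and 6, at medians of -0.36 and -0.42. Without experiment 5, 39 of the 50 had a lower mean, at a median of -0.11. The interferon gene *Ifnb1* itself stayed below background on every array. Of 12 measured class I antigen presentation genes, 10 had a lower mean, and in experiments 4, 5 and 6 the numbers lower were 4, 12 and 11. Without experiment 5, 8 of the 12 had a lower mean.

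*H2-K1* and *H2-D1*, the class I molecules that show peptides to T cells, met the threshold as lower. They were 2 of the 12 class I genes measured (0.265% of all genes). *H2-K1* had log2 values of 11.43, 12.10 and 12.17 in control and 10.85, 11.26 and 11.59 in Paral1-siRNA cells. The groups overlapped but every pair was lower, with a mean difference of -0.67 ± 0.10 (SE), and of -0.58 without experiment 5. *H2-D1* had 10.63, 11.59 and 11.18 against 10.34, 10.74 and 10.51, again with overlapping groups. It differed by -0.60 ± 0.13 (SE) and by -0.48 without experiment 5. Both genes fell short of 1.5-fold without experiment 5, and again after quantile normalization, at -0.58 for *H2-K1* and -0.51 for *H2-D1*. These 2 genes are close paralogs, and probes could share signal. *B2m*, the light chain of class I molecules, sat near the top of the scale at 19.44 to 19.66 and differed by -0.08 ± 0.09 (SE), and by -0.12 without experiment 5.

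Immune surface and chemokine genes were also among the 12 lowest differences. *Ly6c2*, a lipid-anchored surface protein, had log2 values of 12.90, 13.53 and 11.47 in control and 10.78, 12.09 and 10.25 in Paral1-siRNA cells. Every pair was lower, by -1.59 ± 0.18 (SE), 3.01-fold, although the ranges of the groups overlapped. Without experiment 5 the difference of *Ly6c2* was -1.67. *Ly6c1*, a near copy whose probes may share its signal, differed by -1.30 ± 0.15 (SE) and by -1.23 without experiment 5. *Ccl5*, a chemokine for T cells and monocytes, had 7.95, 9.11 and 8.31 in control and 7.09, 7.08 and 7.58 in Paral1-siRNA cells. Its groups did not overlap, and the difference was -1.20 ± 0.26 (SE), 2.30-fold. The control array of experiment 5 was the highest, and without that experiment *Ccl5* differed by -0.79. Of 35 genes on the cytokine and chemokine list, 12 of them above background, only *Ccl5* was lower at the threshold (0.265% of all genes). Only *Hp*, described below, was higher (0.142%), and it encodes haptoglobin, which is on the list but is neither a cytokine nor a chemokine. Of the 35, 24 had a higher mean, against 54.5% of all genes and 68.6% of those not above background. Those higher in all 3 experiments numbered 10 (16.5% of all genes).

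**Figure D1:**
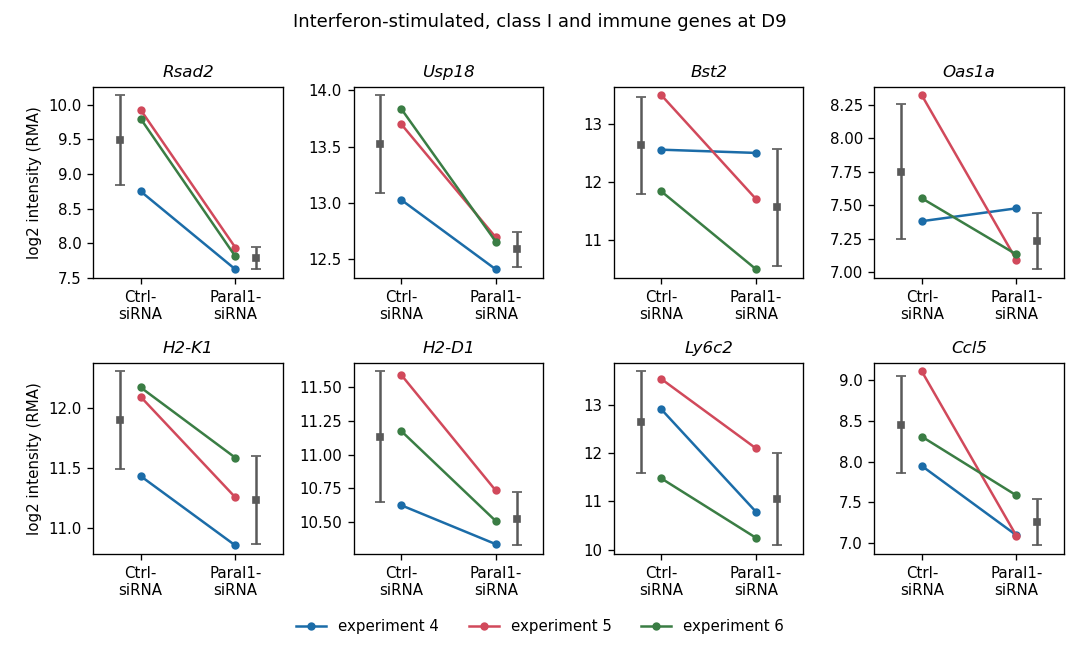
Log2 intensity of 8 genes in Ctrl-siRNA and Paral1-siRNA cells at D9. Lines join the arrays of 1 experiment, and grey squares with bars are the mean ± SD of 3 arrays. *Rsad2*, *Usp18* and *Ccl5* do not overlap between groups, and for *Bst2* and *Oas1a* experiment 4 is flat or slightly higher.

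Among the metabolic lists, triglyceride synthesis had the most members past the threshold, 3. *Agpat2* encodes the acyltransferase that makes phosphatidic acid in fat cells. Its log2 values were 13.97, 13.997 and 15.34 in control and 12.65, 13.58 and 14.89 in Paral1-siRNA cells, so that every pair was lower but the groups overlapped. The difference was -0.73 ± 0.19 (SE), 1.66-fold, -0.89 without experiment 5 and -0.44 without experiment 4 (limma, adjusted p = 0.66). The call of *Agpat2* ended with experiment as a random block (limma, unadjusted p = 0.116), in the fit of all 12 arrays with a replicate block (0.096), and without any block. *Dgat2*, which adds the last acyl chain, had 16.52, 16.29 and 16.98 in control and 15.40, 15.72 and 16.57 in Paral1-siRNA cells. It overlapped as well, and differed by -0.70 ± 0.15 (SE), by -0.77 without experiment 5 and by -0.49, under 1.5-fold, without experiment 4. *Gpam*, the mitochondrial acyltransferase of the first step, had 12.12, 11.87 and 12.24 against 11.17, 11.39 and 11.82. Its groups did not overlap, as for 1 of the 18 genes of this list and 2.50% of all genes. *Gpam* differed by -0.62 ± 0.13 (SE), by -0.69 without experiment 5 and by -0.45 without experiment 4. After quantile normalization *Gpam* was at -0.54, under 1.5-fold. *Lpin1*, the phosphatidate phosphatase between *Agpat2* and *Dgat2*, differed by -0.42 ± 0.13 (SE), in every pair, and by -0.47 without experiment 5, which is under 1.5-fold.

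Of 18 measured genes of triglyceride synthesis, 3 met the threshold as lower (0.265% of all genes) and 0 as higher (0.142%). At an unadjusted p under 0.05, 6 were lower (3.69% of all genes, 868 of the 11863 above background). The list's median difference was -0.11. Of the 18 genes, 15 had a lower mean and 8 were lower in all 3 experiments, against 67.2% and 23.9% of all genes above background. In this list 15 genes lay above background. Some members, picked after their values were seen, lay near 0. *Agpat1* and *Lpin2* differed by less than 0.01, and *Mogat1* and *Mogat2* by -0.03 and 0.01.

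Fatty acid synthesis genes were led by *Thrsp*, or Spot 14, a nuclear protein that favours lipogenesis. *Thrsp* had log2 values of 16.28, 15.85 and 16.63 in control and 14.87, 15.07 and 15.97 in Paral1-siRNA cells. Each pair was lower, the ranges overlapped by the experiment 6 array, and the difference was -0.95 ± 0.16 (SE), 1.93-fold, and -1.03 without experiment 5. *Acacb*, the acetyl-CoA carboxylase of mitochondria, and *Fasn*, the fatty acid synthase, were lower in each pair, by -0.58 ± 0.10 and -0.57 ± 0.16 (SE), just under 1.5-fold. Without experiment 5 both were past 1.5-fold, at -0.67 for *Acacb* and -0.68 for *Fasn*, and without experiment 4 they were at -0.56 and -0.34. *Slc25a1*, the mitochondrial citrate carrier, differed by -0.44 ± 0.15 (SE), -0.56 without experiment 5 and -0.22 without experiment 4. Not all lipogenic enzymes went this way. *Acly* differed by 0.04 and *Elovl6* by 0.33, the latter by 0.07 without experiment 5, and *Scd1* was at the top of the scale on every array, at 19.85 or more, where no difference can be read. Of 19 genes of the list, 14 had lower means, a share near the 67.2% of all genes above background. At an unadjusted p under 0.05, 6 were lower (3.69% of all genes, 868 of the 11863 above background) and 0 higher (3.18%). Of the 19, 1 met the threshold as lower (0.265% of all genes). *Pnpla3*, a lipid droplet acyltransferase or lipase, was lower at the threshold, by -0.68 ± 0.21 (SE), -0.73 without experiment 5 and -0.37 without experiment 4.

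Of 19 cholesterol synthesis and uptake genes, 18 had lower means (67.2% of all genes above background). The median difference was -0.21, against -0.06 for all genes above background. In this list 0 met the threshold, which 0.265% of all genes met as lower and 0.142% as higher. *Fdps*, which makes farnesyl diphosphate, had log2 values of 10.64, 11.43 and 13.39 in control and 9.55, 11.23 and 13.20 in Paral1-siRNA cells. Experiment 4 carried most of the mean difference of -0.50 ± 0.19 (SE), -0.64 without experiment 5. *Cyp51*, the sterol demethylase, had 10.12, 10.46 and 12.39 against 9.33, 10.33 and 12.17, and *Lss*, lanosterol synthase, 8.91, 9.24 and 10.94 against 8.29, 8.98 and 10.82. Their levels followed the experiment far more than the siRNA: both were highest on the arrays of experiment 6. The paired differences were -0.38 ± 0.15 for *Cyp51* and -0.33 ± 0.12 for *Lss* (SE), and -0.50 and -0.37 without experiment 5. *Stard4*, a carrier of cholesterol, was the most even, at -0.45, -0.27 and -0.47. The list's median difference was -0.61 in experiment 4, -0.11 in experiment 5 and -0.08 in experiment 6. *Hmgcs1*, the synthase that feeds the pathway, differed by -1.26, -0.03 and -0.20, and its upstream sequence is given as the 1 gene of 15 with a window that holds the sterol element TCACNCCAC (1.24% of all windows), in capitals.
Hmgcs1 (chr13:119690164-119690272, plus strand): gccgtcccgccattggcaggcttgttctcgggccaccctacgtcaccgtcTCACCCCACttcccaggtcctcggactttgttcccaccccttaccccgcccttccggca

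**Figure D2:**
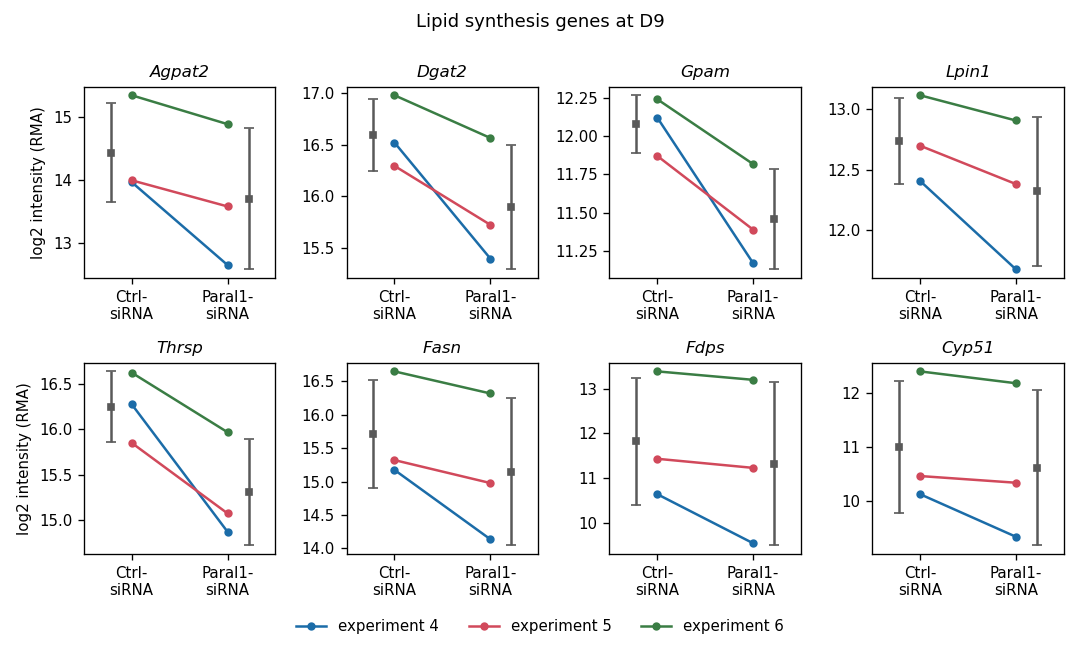
Log2 intensity of 8 lipid synthesis genes in Ctrl-siRNA and Paral1-siRNA cells at D9. Lines join the arrays of 1 experiment, and grey squares with bars are the mean ± SD of 3 arrays. Each gene is lower with Paral1-siRNA in all 3 experiments, while the levels of *Fdps* and *Cyp51* differ more between experiments than between siRNAs.

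The adipogenic regulators and the main fat cell products differed little. *Pparg* had log2 values of 15.97, 15.94 and 16.33 in control and 15.51, 15.86 and 16.15 in Paral1-siRNA cells. The groups overlapped, and the difference was -0.24 ± 0.11 (SE; 95% interval -0.51 to 0.02), -0.32 without experiment 5. *Cebpa* had 12.62, 13.28 and 13.01 against 12.16, 13.09 and 12.95. Its groups overlapped too, at -0.24 ± 0.11 (SE; 95% interval -0.51 to 0.03), -0.26 without experiment 5. Of 20 regulators, 1 was lower and 1 higher at an unadjusted p under 0.05, which is near the shares of all genes (3.69% and 3.18%). The first was *Ppargc1b*, a coactivator of mitochondrial genes, at -0.28 ± 0.10 (SE) and -0.30 without experiment 5. The second was *Nr1h3*, the oxysterol receptor LXRα, with 9.41, 9.11 and 9.29 in control and 10.03, 9.39 and 9.55 in Paral1-siRNA cells, a difference of 0.39 ± 0.11 (SE), and 0.45 without experiment 5.

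*Fabp4*, the fatty acid carrier of adipocytes, had log2 values of 19.40, 18.95 and 19.10 in control and 19.09, 18.88 and 19.11 in Paral1-siRNA cells, near the top of the scale. It differed by -0.13 ± 0.10 (SE; 95% interval -0.37 to 0.12), and by -0.15 without experiment 5. The fatty acid receptor *Cd36* and the insulin-regulated glucose transporter *Slc2a4* had slightly higher means, by 0.18 ± 0.11 and 0.20 ± 0.09 (SE), and by 0.06 and 0.20 without experiment 5. *Adipoq* and *Lpl* differed by -0.04 and -0.06, and by -0.08 and -0.16 without experiment 5. Both were slightly above 0 after quantile normalization. *Plin4*, a lipid droplet coat protein, was lower in each pair, by -0.41 ± 0.12 (SE), and by -0.39 without experiment 5. Of 25 white adipocyte markers, 13 had lower means, a smaller share than the 67.2% of all genes above background. At an unadjusted p under 0.05, 5 were lower (3.69% of all genes, 868 of the 11863 above background). Of the 25, 1 met the threshold as lower (0.265% of all genes). This was *Fabp5*, with 10.27, 10.61 and 11.53 in control and 8.54, 10.11 and 11.39 in Paral1-siRNA cells. Experiment 4 set most of its difference of -0.79 ± 0.29 (SE), which was -0.93 without experiment 5 and -0.32 without experiment 4. Of the alternative fits, *Fabp5* missed the threshold with a random block, with all 12 arrays and with array weights, among others. *Fabp5l2*, a near copy that may share its signal, differed by -1.06 ± 0.41 (SE), -1.30 without experiment 5 and -0.39 without experiment 4.

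Mitochondrial genes had small differences, nearly all toward lower values. Of 77 oxidative phosphorylation genes, 75 had a lower mean and 40 were lower in all 3 experiments, against 67.2% and 23.9% of all genes above background. The median difference was -0.24. At an unadjusted p under 0.05, 15 genes were lower (3.69% of all genes) and 0 higher (3.18%), while 0 met the threshold. All 77 lay above background, where 868 of 11863 genes were lower and 203 higher at that p. Of those 11863, 0.598% met the threshold as lower. *Sdhd*, a membrane anchor of succinate dehydrogenase, had 12.61, 13.09 and 13.77 in control and 11.73, 12.91 and 13.40 in Paral1-siRNA cells. It differed by -0.48 ± 0.15 (SE), -0.63 without experiment 5, with overlapping groups. *Cycs*, cytochrome c, differed by -1.23, -0.13 and -0.17 in experiments 4, 5 and 6, a mean of -0.51 ± 0.23 (SE), and -0.70 without experiment 5. In these experiments 76, 62 and 48 of the 77 genes were lower, at medians of -0.51, -0.14 and -0.06. Without experiment 5, 74 had a lower mean, at a median of -0.26.

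Of 34 genes of the TCA cycle and pyruvate metabolism, 33 had a lower mean, at a median of -0.20, as had 70 of 72 mitochondrial ribosomal protein genes, at -0.16. *Mrpl46*, of the large mitochondrial ribosomal subunit, was lower in each pair, by -0.42 ± 0.10 (SE), and by -0.46 without experiment 5. *Pck1*, the enzyme of glyceroneogenesis, differed by -0.57 ± 0.19 (SE), -0.69 without experiment 5 and -0.27 without experiment 4. Of 24 fatty acid oxidation genes, 19 had a lower mean (67.2% of all genes above background). *Acadvl*, the very long chain dehydrogenase, differed by -0.41 ± 0.10 (SE), and by -0.43 without experiment 5. *Ehhadh*, a peroxisomal enzyme above background on 4 of the 6 arrays, was higher, by 0.47 ± 0.09 (SE), and by 0.45 without experiment 5. *Cox8b*, a cytochrome oxidase subunit of muscle and brown fat, met the threshold. Its log2 values were 9.28, 10.57 and 10.82 in control and 7.27, 9.87 and 10.56 in Paral1-siRNA cells, with overlapping groups and a difference of -0.99 ± 0.32 (SE), -1.14 without experiment 5 and -0.48 without experiment 4.

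The share of lower genes moved with the scaling of the arrays. The interquartile range of the Paral1-siRNA array of experiment 4 was 3.57, against 3.76 to 3.91 on the other 5. After the 6 arrays were quantile normalized again, the median of genes above background was 0.01 rather than -0.06. Then 69 of 77 oxidative phosphorylation genes were lower, at a median of -0.15, as were 31 of 34 TCA cycle genes, at -0.11, 64 of 72 mitochondrial ribosomal proteins, at -0.09, 15 of 19 cholesterol genes, at -0.13, and 41 of 50 interferon-stimulated genes, at -0.11.

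**Figure D3:**
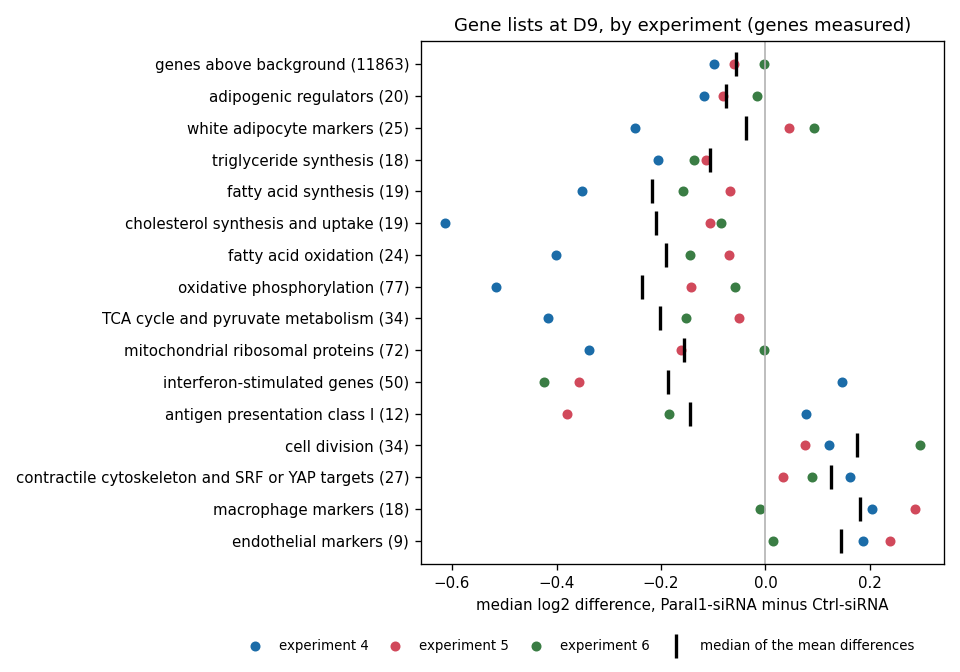
Median log2 difference of 15 gene lists and of all genes above background at D9 in experiments 4, 5 and 6 (circles), with the number of genes measured in brackets. Black bars are the median of the genes' mean differences. Mitochondrial and cholesterol lists are lowest in experiment 4, whereas interferon-stimulated genes are above 0 in experiment 4 and lowest in experiments 5 and 6.

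Several further genes that met the threshold as lower belonged to other lists or to none. *Ccnd2*, cyclin D2, had log2 values of 15.37, 15.38 and 15.76 in control and 14.32, 14.76 and 14.96 in Paral1-siRNA cells. The groups did not overlap, and the difference was -0.83 ± 0.11 (SE), 1.77-fold, and -0.93 without experiment 5. *Igf2r*, the receptor that clears insulin-like growth factor 2, had 12.02, 12.14 and 11.94 against 11.19, 11.40 and 11.20. It differed by nearly the same amount in each pair, at -0.77 ± 0.09 (SE), and -0.79 without experiment 5. *Fgfr1*, a fibroblast growth factor receptor, had 12.31, 11.92 and 11.71 against 11.22, 11.22 and 11.18, without overlap, a difference of -0.77 ± 0.13 (SE), and -0.81 without experiment 5. *Pfkfb3*, which makes the activator of phosphofructokinase, had 10.91, 10.60 and 10.69 against 9.43, 10.10 and 10.20. Its groups did not overlap either, at -0.82 ± 0.21 (SE), -0.98 without experiment 5 and -0.50 without experiment 4. *Pxmp4*, a peroxisomal membrane protein, differed by -0.83 ± 0.24 (SE), -1.05 without experiment 5 and -0.44 without experiment 4. *Rora*, a nuclear receptor of the circadian clock, differed by -0.66 ± 0.20 (SE), -0.87 without experiment 5 and -0.36 without experiment 4, and by -0.34 as the mean of its probe sets. *Lipa*, lysosomal acid lipase, differed by -0.79 ± 0.20 (SE), -1.08 without experiment 5 and -0.53 without experiment 4. *Cnn2*, an actin-binding calponin, did not overlap between groups, at -0.72 ± 0.13 (SE), and -0.54, under 1.5-fold, without experiment 5.

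The D2 arrays, which share no sample with D9, show which of these differences were also present when the siRNA was given at D0. Of the 80 genes lower at the D9 threshold, 24 were lower at the same threshold at D2, 30.0% of the D9 and 6.94% of the 346 D2 genes, and D2 calls of this kind made up 1.15% of all genes. The 24 include *Ccnd2*, *Igf2r*, *Fgfr1*, *Pfkfb3*, *Pxmp4* and *Rora*, with D2 differences of -0.92, -0.94, -0.81, -1.002, -0.72 and -0.87. They also include *Agpat2* at -1.63, *Dgat2* at -2.40, *Fabp5* at -2.18 and the adiponectin receptor gene *Adipor2* at -1.42. *Adipor2* differed at D9 by -0.61 ± 0.16 (SE), -0.73 without experiment 5 and -0.38 without experiment 4. *Rsad2*, *Usp18*, *Bst2*, *Ccl5*, *H2-K1*, *H2-D1*, *Thrsp*, *Cox8b* and *Lipa* were not among them, and their D2 differences ran from -0.14 to 0.08. *Ly6c2* and *Ly6c1* were higher at the D2 threshold, by 0.82 and 0.70. Of the 43 higher genes, *Col12a1*, a fibril-associated collagen, was the 1 gene also higher at D2 (2.33% of the 43, 0.336% of the 298 D2 genes, against 0.988% of all genes). It differed by 1.35 at D2 and by 0.61 ± 0.11 (SE) at D9, by 0.74 without experiment 5 and by 0.53, under 1.5-fold, without experiment 4.

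The difference between the D9 and the D2 effect passed an adjusted p of 0.05 for no gene (0 of 30176, 0%; limma over 12 arrays), whereas 2199 genes (7.29%) were counted at an unadjusted p under 0.05. The lowest adjusted p, 0.25, included *Ly6c2*, whose D9 effect minus D2 effect was -2.41. *Rsad2* had -1.74, at an adjusted p of 0.47. For *Pparg* and *Cebpa* the D2 differences were -1.41 and -2.05, and the D9 minus D2 differences of 1.16 and 1.82 had adjusted p-values of 0.67 and 0.55.

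**Figure D4:**
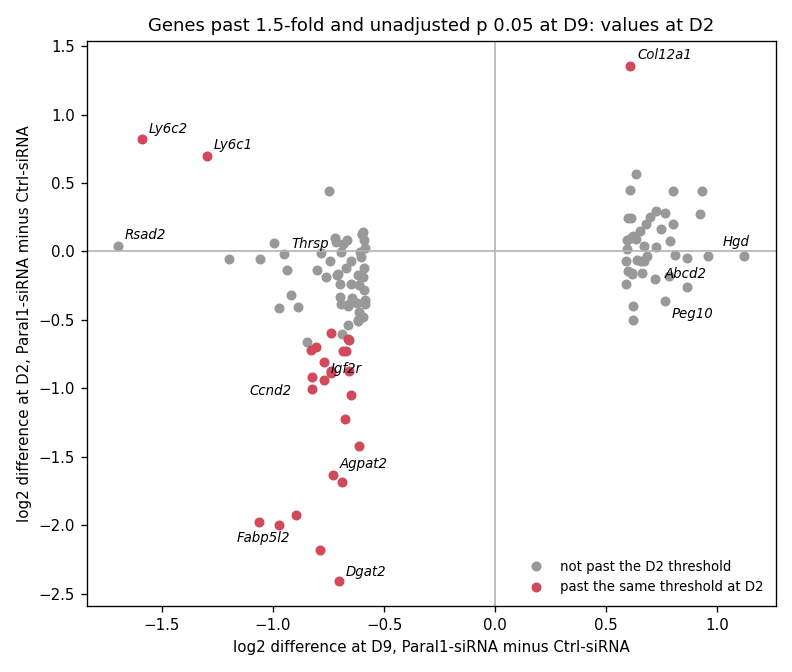
Log2 difference between Paral1-siRNA and Ctrl-siRNA at D9 (horizontal axis) and at D2 (vertical axis) for the 123 genes past 1.5-fold and an unadjusted p of 0.05 at D9. Red points also passed this threshold at D2 in either direction. Of the 80 lower genes 24 were lower at D2 as well, *Ly6c1* and *Ly6c2* lay in the opposite direction, and *Rsad2* and *Thrsp* were near 0 at D2.

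Of the 43 entries that met the threshold as higher, those that were not predicted models, small RNAs or olfactory receptors had varied functions. *Hgd*, homogentisate dioxygenase of tyrosine breakdown, had log2 values of 7.00, 6.44 and 6.16 in control and 8.51, 7.49 and 6.96 in Paral1-siRNA cells. Every pair was higher and the ranges overlapped slightly, with a difference of 1.12 ± 0.15 (SE), 2.18-fold, and 1.16 without experiment 5 (limma, adjusted p = 0.60). *Hgd* lay above background on 5 of the 6 arrays. *Gcnt2*, a glycosyltransferase that branches sugar chains, had 7.03, 6.90 and 6.80 against 7.71, 8.02 and 7.79. Its groups did not overlap, which in this direction was seen for 4.66% of all genes, and it differed by 0.93 ± 0.11 (SE), and by 0.84 without experiment 5. *Abcd2*, the peroxisomal importer of very long chain fatty acids, had 8.53, 7.69 and 9.44 against 9.57, 8.62 and 10.05. The pairs moved together over overlapping ranges, at 0.86 ± 0.11 (SE), and 0.83 without experiment 5.

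*Papss2*, which makes the sulfate donor, had 11.42, 10.20 and 10.86 in control and 12.23, 10.82 and 11.68 in Paral1-siRNA cells. It showed the same kind of even paired difference, 0.75 ± 0.09 (SE), and 0.81 without experiment 5. *Peg10*, an imprinted gene derived from a retrotransposon, had 10.51, 11.53 and 11.14 against 11.63, 12.00 and 11.85. It did not overlap between groups, at 0.77 ± 0.14 (SE), and 0.91 without experiment 5. *Spry3*, a Sprouty inhibitor of growth factor signalling, did not overlap either, at 0.69 ± 0.09 (SE), and 0.75 without experiment 5. *Spry3* lay above background on 5 of the 6 arrays. *Cyp2f2*, a cytochrome P450, differed by 0.62 ± 0.09 (SE), and by 0.65 without experiment 5. *Rdh12*, a retinol dehydrogenase that lay below background on 2 of the 6 arrays, differed by 0.78 ± 0.14 (SE), and by 0.94 without experiment 5. *Apoe*, the lipoprotein ligand, differed by 0.68 ± 0.16 (SE), 0.74 without experiment 5 and 0.45 without experiment 4. *Hp*, haptoglobin, differed by 0.62 ± 0.17 (SE), and by 0.46, under 1.5-fold, without experiment 5.

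*Acta2*, smooth muscle actin, and *Tagln*, transgelin, met the threshold, with their largest difference in experiment 5, whose Paral1-siRNA array also carried *Myh11* and *Cnn1*. *Acta2* had log2 values of 12.75, 10.68 and 11.96 in control and 13.12, 12.15 and 12.51 in Paral1-siRNA cells. *Tagln* had 7.11, 6.67 and 6.82 against 7.67, 8.06 and 7.04. Every pair was higher and the groups overlapped. The means were 0.80 ± 0.22 and 0.72 ± 0.22 (SE), and 0.46 and 0.39 without experiment 5, which is under 1.5-fold. In the list of 27 contractile and SRF or YAP target genes, 13 were higher in all 3 experiments (16.5% of all genes), and the median difference was 0.13. *Acta2* and *Tagln* were the 2 members that met the threshold as higher (0.142% of all genes). The 1 member that met it as lower (0.265%) was *Cnn2*, described above, at -0.72 and lower in every pair. *Car3*, carbonic anhydrase 3 of fat and muscle, differed by 0.16, 1.97 and 0.18.

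**Figure D5:**
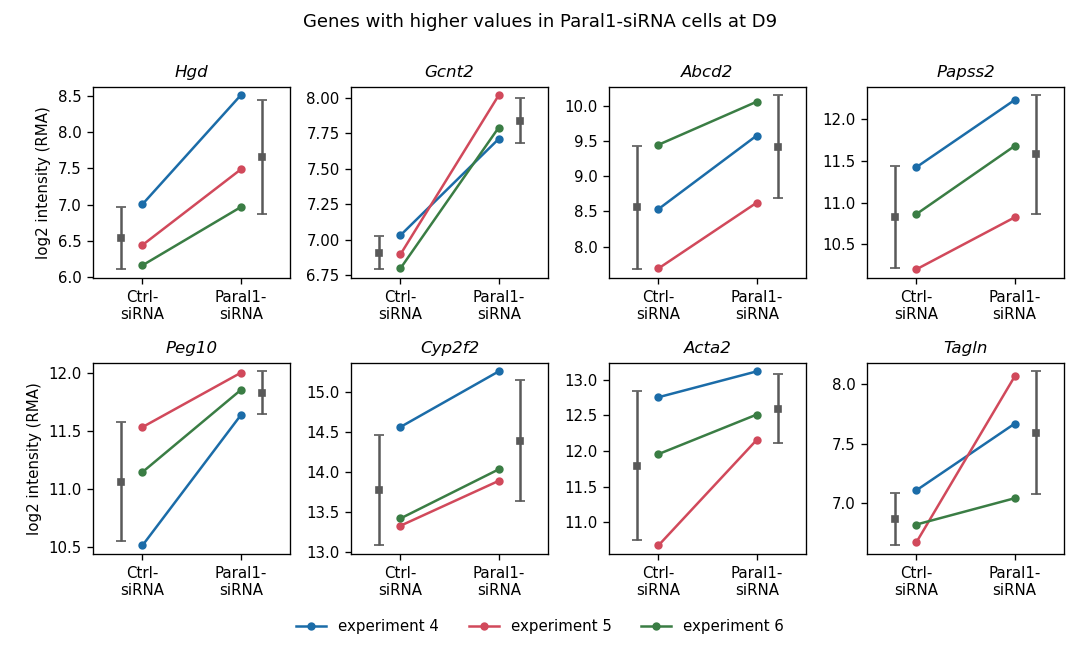
Log2 intensity of 8 genes with higher values in Paral1-siRNA than Ctrl-siRNA cells at D9. Lines join the arrays of 1 experiment, and grey squares with bars are the mean ± SD of 3 arrays. *Gcnt2* and *Peg10* do not overlap between groups, and *Acta2* and *Tagln* have their steepest line in experiment 5.

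Cell division genes had low levels and slightly higher values in Paral1-siRNA cells. Of 34 measured, 15 were above background, 33 had a higher mean and 21 were higher in each of the 3 experiments (16.5% of all genes, 8.35% of those above background). At an unadjusted p under 0.05, 9 were higher (3.18% of all genes) and 0 lower (3.69%), and 0 met the threshold (0.408%). *Mki67*, a protein of dividing cells, had log2 values of 6.53, 6.22 and 8.03 in control and 7.18, 6.46 and 8.71 in Paral1-siRNA cells. It followed the experiment, with overlapping groups, and differed by 0.52 ± 0.12 (SE), and by 0.66 without experiment 5. *Ccna2*, cyclin A2, differed by 0.45 ± 0.09 (SE), and by 0.50 without experiment 5. The list's median difference was 0.17, and 0.12, 0.08 and 0.30 in experiments 4, 5 and 6. At D2, 33 of the 34 had a lower mean, at a median of -0.38. Macrophage and endothelial markers also had higher means, 17 of 18 and 9 of 9, at medians of 0.18 and 0.14, and of 0.11 and 0.12 without experiment 5. Higher means were found for 54.5% of all genes, 68.6% of those not above background, and 17 of 18 skeletal and cardiac muscle markers. In Paral1-siRNA cells 1 to 6 of the 18 macrophage and 0 of the 9 endothelial markers exceeded background, against 2 to 3 and 0 in control cells. These counts depend on each array's own brightest background probe set. It was at 7.02 on the Paral1-siRNA array of experiment 6, which had the count of 1, and at 5.99 to 6.40 on the others. On that array 33.35% of genes exceeded background, against 38.23% to 42.43% on the others. The part of macrophage and endothelial transcripts in the other results was not tested.

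The genes that flank *Paral1* were *Pak7* and *Ankef1*, the latter also known as *Ankrd5*. *Pak7* lay below background on every array, at 3.93 to 4.02. *Ankef1* had log2 values of 7.65, 6.63 and 7.35 in control and 6.76, 6.53 and 7.08 in Paral1-siRNA cells. The groups overlapped, and the difference of *Ankef1* was -0.42 ± 0.16 (SE), -0.58 without experiment 5, most of it from experiment 4.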

How the data were processed

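The deposited values are log2 intensities per probe set. The authors applied GC count normalization and signal space transformation in Affymetrix Expression Console 1.4.1, followed by RMA, which the labels credit to Expression Console and the methods to Partek Genomics Suite. For the genome build, the sources used here give none. Of 65956 transcript clusters, the 30638 with 1 symbol were used, the brightest for the 354 genes with several. The 6 D9 arrays were fitted with limma 3.58.1 in R 4.3.3 with experiment as a fixed block and Benjamini-Hochberg adjustment over 30176 genes, and tested on simulated data. The number of arrays, 3 per group, limits the precision. The labels number the experiments. Over 11863 genes, deviations of same-numbered arrays from their group means correlated at 0.73, 0.81 and 0.85, against -0.55 to -0.21 for different numbers. Centring on a mean of 3 arrays itself pushes the values for different numbers below 0 when same-numbered ones lie above it. The arrays were treated as paired by their label. An unpaired exact permutation test of 3 against 3 cannot go below p = 0.1. Nothing states that arrays of a group came from separate cultures. The p-values of the main fit measure the spread of the paired differences across experiments.

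Genes, lists and tests were chosen with earlier results of these data known. Named by rule were genes of the paper's D9 text, the 12 largest differences each way (1 sign in all experiments, unadjusted p under 0.05, above background, no predicted models or small RNAs), up to 4 list members, and the 12 genes highest on the experiment 5 array. *Isg15*, *Oas1a*, *Ifit1*, *Ifnb1*, *B2m*, *Fasn*, *Acacb*, *Slc25a1*, *Acly*, *Elovl6*, *Scd1*, *Pnpla3*, *Stard4*, *Adipoq*, *Lpl*, *Adipor2*, *Car3* and the 4 triglyceride genes near 0 were named after their values were seen. *Rbm14* was not analysed here.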

Additional observations from a re-analysis of the deposited data

How the results depend on the processing

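No setting brought a gene past an adjusted p of 0.05, the lowest adjusted p ranging from 0.13 to 1. The 123 genes past 1.5-fold and an unadjusted p of 0.05 became 76 without the replicate block, 32 with the methods' t-test and 44 with a paired t-test, all of them within the 123. With both arrays of 1 experiment left out, this count ran from 198 to 346 (64 to 104 of the 123 shared), and the genes of 1 sign with a 1.5-fold mean, 127 with 3 experiments, from 207 to 361, since 2 pairs remain. Quantile normalization gave 97 genes (57.7% lower, against 65%), and subtraction of array medians 149 (82.6% lower). The filter on dim genes gave 89 (80.9% lower). The median of triglyceride synthesis genes, -0.11, was -0.200 above background only (15 genes), and ran from -0.168 to -0.059 with 1 experiment left out.

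Among 74 genes followed, 28 lost the threshold with the methods' t-test, 22 with a paired t-test and 19 without the replicate block. These counts are not shares of 74, since *Pparg*, *Fabp4*, *Isg15*, *Pak7* and others did not meet the threshold in the main fit. Of the 123 genes that met it, 32, 44 and 76 kept it in these fits, in the same order. A random block ended 9 calls, those of *Agpat2*, *Pnpla3*, *Fabp5*, *Fabp5l2*, *Cox8b*, *Acta2*, *Rdh12*, *Apoe* and *Cyp2f2*, and the fit of all 12 arrays 6, those of *Agpat2*, *Dgat2*, *Fabp5*, *Fabp5l2*, *Adipor2* and *Col12a1*. Quantile normalization ended 7, those of *H2-K1*, *H2-D1*, *Gpam*, *Fabp5*, *Fabp5l2*, *Adipor2* and *Rora*. Subtraction of array medians ended those of *Cyp2f2*, *Hp* and *Col12a1*, array weights those of *Fabp5*, *Fabp5l2* and *Adipor2*, and the mean of all probe sets that of *Rora*.

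The sign of small differences that met no threshold turned in some settings. *Ifit1* was -0.023 after median subtraction and -0.024 with array weights, and -0.21 to 0.17 with 1 experiment left out. After quantile normalization *Adipoq* was 0.00632 and *Lpl* 0.026, and with 1 experiment left out they ran from -0.103 to 0.067 and from -0.165 to 0.038. *Pak7* was 0.0070 with array weights and -0.058 to 0.024 with 1 left out. *Ucp1* ran from -0.117 to 3.09 and *Mgp* from -0.00032 to 0.849, each lowest without experiment 5.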

Other observations

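Transcript clusters with no symbol or with several, 35318 in all, were not used above. Fitted in the same way, 0 passed an adjusted p of 0.05 (limma, lowest adjusted p 0.65), and 170 (0.481%) passed 1.5-fold with an unadjusted p under 0.05, 72 higher and 98 lower in Paral1-siRNA cells.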
